A study of Mus musculus with 10 samples.

Results

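The genes described here are 38 genes of DNA replication and S phase, chosen as a list by name and each found under exactly 1 of the 46983 gene identifiers that every library lists. They were measured by RNA-seq in mammary glands of virgin female C57BL/6 mice that ate either a control folic acid diet (CFA, 1 mg FA/kg) or a high folic acid diet (HFA, 5 mg FA/kg) for 4 weeks, and then the AIN93M maintenance diet for a further 4 weeks. No allele, and no agent other than folic acid, is named for either group, and the glands were taken on PND 130. Each of the 5 CFA and 5 HFA libraries came from the right thoracic fat pad of 1 mouse, excised whole, so that epithelium, fat, vessels and whatever else the pad held were read together.

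DNA is copied once per cell cycle, in S phase. In G1 the origin recognition complex, with CDC6 and CDT1, loads the MCM helicase onto origins. CDC45 and the GINS complex then switch the helicase on, primase starts each strand, and the replicative polymerases extend the strands on the sliding clamp PCNA. Most of these genes are transcribed in a wave at the passage from G1 to S under the E2F factors, so their RNA in a tissue is high where many cells divide. In a bulk sample fewer dividing cells and less RNA per cell cannot be told apart.

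The 5 CFA libraries held 7711010 to 14829291 counts on genes, with a median of 13711249, and the 5 HFA libraries 7672199 to 14336914, with a median of 12209479. Levels are given as CPM, in which the reads of a gene are scaled to the total reads of its library after TMM adjustment of the libraries, and libraries are named by group and number. Keratin and adipocyte genes were read in every library, with *Krt18* at 98.7 to 472.5 CPM in CFA and at 78.3 to 406.4 CPM in HFA, and *Adipoq* at 1081 to 2087 CPM over the 10. The libraries CFA 2, CFA 5 and HFA 5 stood apart. *Ighd*, the delta heavy chain of mature B cells, was at 104.6 CPM in CFA 2, 290.0 in CFA 5 and 895.3 in HFA 5, where the other 7 read between 0.914 and 1.64 CPM. The summed level of the 8 B cell markers was 644.1, 1674 and 4765 CPM in those 3 libraries against 40.2 to 99.8 CPM in the other 7, and that of the 7 T cell markers 161.0, 378.5 and 890.9 CPM against 5.76 to 13.9 CPM. HFA 5 also held the lowest summed levels of skeletal muscle markers (602 CPM, against 5682 to 47216 CPM in the rest), of luminal epithelial markers (309.8 CPM) and of basal epithelial markers (97.8 CPM). The comparisons below use either all 10 libraries or the 7 libraries whose *Ighd* level was below 50 CPM (CFA 1, 3 and 4 and HFA 1 to 4), and each says which.

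In all 10 libraries, 0 of the 37 genes that could be tested had an adjusted p below 0.05 in the quasi-likelihood test of edgeR, where 0.0% of all 15610 genes passed. The smallest adjusted p was 0.648, and 2 genes, *Dtl* and *Gins2*, had an unadjusted p below 0.05, both lower in HFA, beside 3.49% of all genes in that direction and 7.36% in either. The fitted log2 fold change (HFA minus CFA) was below 0 for 36 of the 37, beside 40.0% of all genes, and its median was −0.37 beside 0.06 over all genes. *Gins4* was the only gene above 0. The likelihood ratio test, DESeq2 and limma voom also called 0 of the 37, beside 0.211%, 0.384% and 0.0% of all genes. With HFA 5 alone left out, 1 gene, *Rrm2*, passed, beside 0.0381% of all genes, and 31 were lower at an unadjusted p below 0.05, beside 15.0%.

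In the 7 libraries, 15 of 37 genes fell in HFA at an adjusted p below 0.05 and none rose, beside 2.98% of all 15759 genes called in either direction and 1.8% called lower. Those 15 were the helicase genes *Mcm2*, *Mcm3*, *Mcm4*, *Mcm5* and *Mcm6*, the loader *Cdc6*, and *Mcm10*, *Prim1*, *Pold1*, *Pcna*, *Rfc5*, *Lig1*, *Rrm2*, *Chaf1b* and *Dtl*. Their adjusted p lay between 0.0422 and 0.0481, close under the threshold. The median log2 fold change of the 37 was −0.81 beside 0.01 over all genes, and 36 were below 0 beside 49.0% of all genes. At an unadjusted p below 0.05, 25 of the 37 were lower beside 11.5% of all genes. On the same 7 libraries the likelihood ratio test called 21 of the 37, beside 10.1% of all genes, DESeq2 22, beside 10.9%, and limma voom 15, beside 2.98%. The calls rested on few mice. Leaving out CFA 4 gave 14 calls, all lower, beside 3.75% of all genes called lower, and leaving out HFA 3 gave 1, beside 0.0256%. Leaving out CFA 1, CFA 3, HFA 1, HFA 2 or HFA 4 left 0, beside 0.0% to 0.0257% of all genes called lower. Over these 7 fits, 22 to 29 genes were lower at an unadjusted p below 0.05, beside 7.3% to 12.5% of all genes. The median lay between −0.69 and −0.88.

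**Figure D1:**
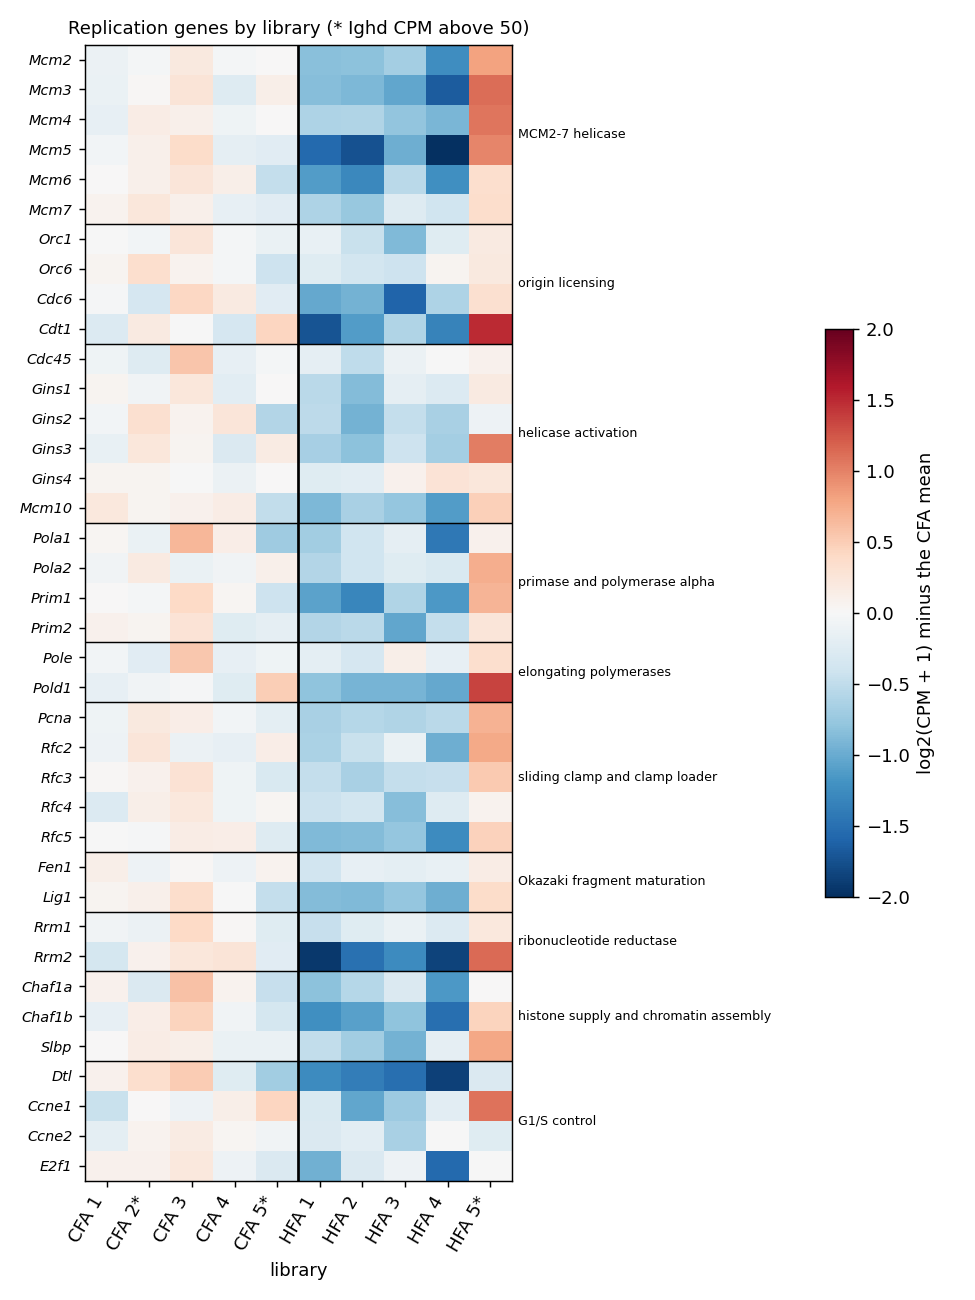
Level of each of the 38 genes (rows, by role) in each of the 10 libraries (columns, starred where *Ighd* exceeded 50 CPM), as log2(CPM + 1) minus the mean of the 5 CFA libraries, with colours capped at 2 in either direction. HFA 1 to HFA 4 are below the CFA mean for 36 to 38 genes each, whereas HFA 5 is below it for 5.

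For most of the genes HFA 1 to HFA 4 lay low and HFA 5 lay high. HFA 1 and HFA 2 were below the CFA mean for 38 of 38 genes and HFA 3 and HFA 4 for 36, whereas HFA 5 was below it for 5. All of HFA 1 to HFA 4 lay below all 5 CFA libraries for 24 of the 38 genes (23 of the 37 tested), beside 4.74% of all genes tested. In the 7 libraries the groups did not overlap, with HFA lower, for 28 of the 38 (27 of the 37 tested), beside 10.6%. With HFA 5 included, 0 genes separated the 5 HFA from the 5 CFA libraries. HFA 5 was above every other HFA library for 36 genes and above every CFA library for 22. The shares of all genes with HFA 5 above every other HFA library, or above every CFA library, were not computed.

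HFA 5 was the highest of the 10 libraries for 21 genes, beside 31.8% of all genes, CFA 3 was the highest for 14, beside 7.62%, and HFA 4 the lowest for 14, beside 14.7%. The other libraries with high *Ighd* did not share the position of HFA 5. CFA 5 was the highest of the 10 for 0 genes and lay below CFA 1, 3 and 4 for 20, and CFA 2 lay above CFA 1, 3 and 4 for 11. The shares of all genes with CFA 5 or CFA 2 in these positions were not computed. The spread within a group was correspondingly uneven: the median SD over mean of the 37 genes was 0.184 in CFA and 0.535 in HFA, and 0.209 over HFA 1 to HFA 4 alone, where the medians over all genes tested were 0.189 in CFA and 0.306 in HFA. With the mean lymphoid (B and T cell) marker level as a covariate over all 10 libraries, 0 of the 37 were called, 9 were lower at an unadjusted p below 0.05, beside 8.59% of all genes, and the median log2 fold change was −0.49, beside 0.03.

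**Figure D2:**
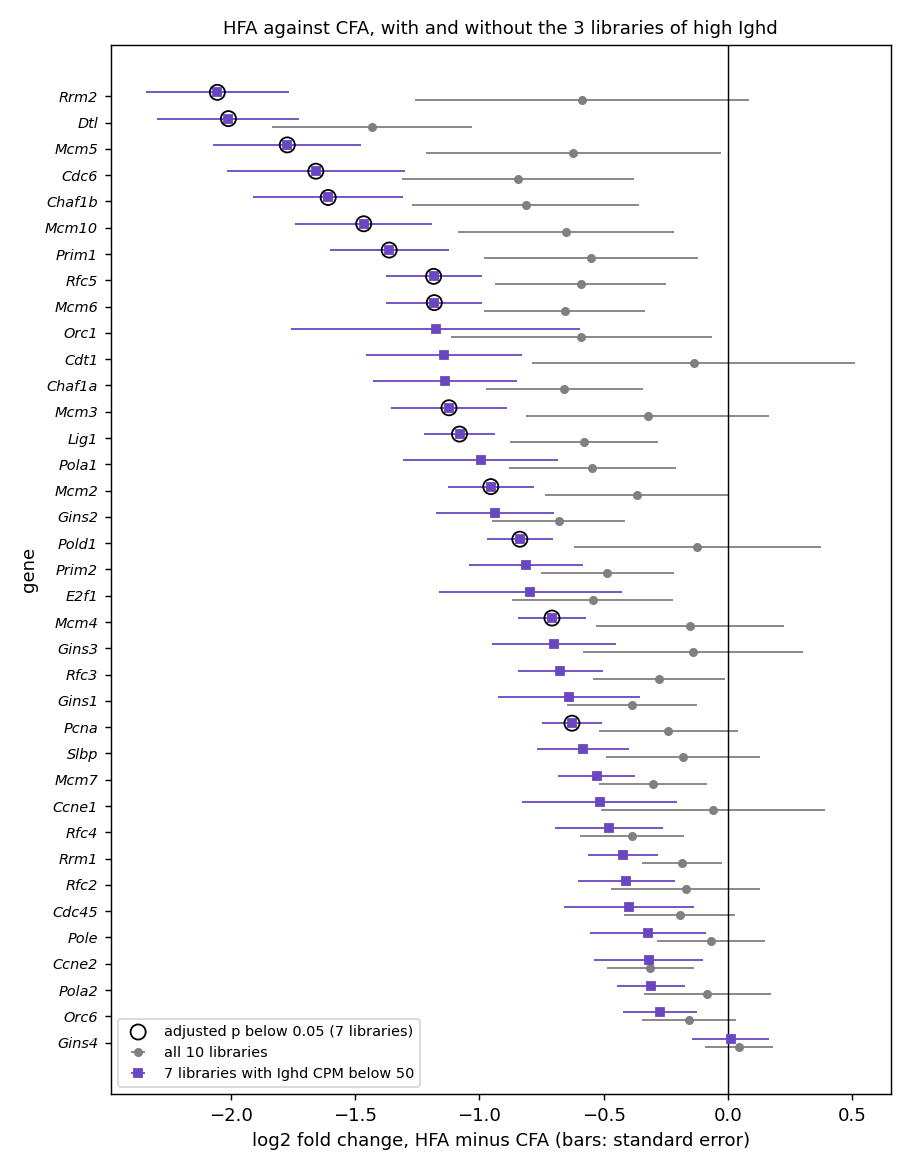
Log2 fold change (HFA minus CFA) of the 37 genes tested, with standard errors as bars, in all 10 libraries (grey) and in the 7 libraries with *Ighd* below 50 CPM (purple, circled where the adjusted p was below 0.05). The medians are −0.37 and −0.81, and *Gins4* lies nearest to 0 in both, at 0.04 and 0.01.

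The sample titles divide the libraries a second time, by their second digit, whose meaning the labels do not give. With digit 2 (CFA 1 and 2, HFA 1 to 3), 12 of the 36 genes tested fell in HFA at an adjusted p below 0.05, beside 4.11% of all genes called lower, 35 of the 36 were below 0, beside 48.5%, and the median log2 fold change was −0.70. That set held CFA 2, with its high *Ighd*, but neither CFA 5 nor HFA 5. With digit 3 (CFA 3 to 5, HFA 4 and 5), 0 of 37 were called, beside 0.0% of all genes. At an unadjusted p below 0.05, 0 were lower, beside 2.56% of all genes. Of the 37, 21 were below 0, beside 47.8%, with a median of −0.12. The difference between the digits was not tested.

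Because the genes of this list are textbook targets of E2F, the 250 bases before each gene's start in RefSeq were searched in the sequence of GRCm38.p6 for the letters TTTCCCGC, TTTCGCGC, TTTGCCGC and TTTGGCGC on either strand, with overlapping matches counted separately. The RefSeq start can differ from the GENCODE gene positions given for the genes, and a gene with several windows was counted once, by any match. Of the 30 genes with such a window, 9 held a match (30.0%), beside 2.72% of 17492 protein-coding genes and 2.16% of all 27025 genes with a window. The 9 were *Mcm6* with 3 matches, *Mcm5* with 2, and *Dtl*, *Orc1*, *Mcm7*, *Rfc3*, *Gins3*, *Cdc6* and *Pola1* with 1 each. For the 4 among them that passed the threshold in the 7 libraries, the window is printed 5′ to 3′ along the strand of the gene, ending at the base before the RefSeq start, with the matched letters in capitals and without bases in GENCODE exons. The stretches lie at chr1:191575545-191575635 (*Dtl*, minus strand), chr8:75109259-75109508 (*Mcm5*, plus strand), chr1:128359706-128359955 (*Mcm6*, minus strand) and chr11:98907982-98908150 (*Cdc6*, plus strand). *Dtl* was shortened to 91 bases, since the first exon of *Ints7* begins there on the other strand. *Cdc6* was shortened to 169 bases, since its GENCODE gene begins further upstream and the stretch lies after that model's first exon, within the gene.
Dtl: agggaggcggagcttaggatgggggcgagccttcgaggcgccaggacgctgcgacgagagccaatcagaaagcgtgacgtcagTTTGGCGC
Mcm5: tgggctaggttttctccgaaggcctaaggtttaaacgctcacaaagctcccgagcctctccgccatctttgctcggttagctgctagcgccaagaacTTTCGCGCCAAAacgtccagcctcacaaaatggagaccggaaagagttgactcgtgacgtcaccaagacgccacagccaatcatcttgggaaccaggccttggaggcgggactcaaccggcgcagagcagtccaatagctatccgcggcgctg
Mcm6: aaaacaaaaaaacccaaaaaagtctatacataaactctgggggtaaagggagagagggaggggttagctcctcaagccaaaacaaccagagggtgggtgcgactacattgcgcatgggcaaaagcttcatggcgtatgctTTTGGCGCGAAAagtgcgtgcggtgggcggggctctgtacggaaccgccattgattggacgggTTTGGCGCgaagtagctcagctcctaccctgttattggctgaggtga
Cdc6: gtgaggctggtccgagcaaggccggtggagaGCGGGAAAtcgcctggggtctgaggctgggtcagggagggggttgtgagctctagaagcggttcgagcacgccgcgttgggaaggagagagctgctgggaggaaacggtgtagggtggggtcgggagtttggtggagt
Counted from the RefSeq start, the match of *Dtl* lay directly before it, at −8, those of *Mcm5* overlapped at −153 and −149, those of *Mcm6* lay at −110, −106 and −47 with the first pair overlapping, and that of *Cdc6*, on the opposite strand, at −138. A match of letters is no measured binding. *Orc1*, *Mcm7*, *Rfc3*, *Gins3* and *Pola1* held a match and did not pass in the 7 libraries. *Mcm2*, *Mcm3*, *Mcm10*, *Prim1*, *Pold1*, *Pcna*, *Rfc5*, *Lig1*, *Rrm2* and *Chaf1b* passed with no match in their windows. Whether a match goes with the fall was not tested. For comparison, the letters CCAAT, another element of cell cycle promoters, stood in a window of 63.3% of the 30 genes and of 39.5% of protein-coding genes, and TTTGAA, a core of the element found in late cell cycle promoters, in 13.3% and 16.9%.

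The MCM helicase is a ring of 6 different subunits that unwinds the template, and all 6 of its genes had a fold change below 0. *Mcm6* (chromosome 1, 128331590 to 128359664 in GRCm38) was the most abundant of the 6 per kb of exon and read 51.9, 55.2, 60.8, 55.9 and 36.7 CPM in CFA 1 to 5 and 23, 20.4, 35, 21.3 and 65.3 CPM in HFA 1 to 5. HFA 1 to 4 were all below the lowest CFA library and HFA 5 above the highest. Its log2 fold change was −0.66 (SE 0.32, adjusted p = 0.679 in edgeR's quasi-likelihood test) in 10 libraries and −1.18 (SE 0.19, adjusted p = 0.0428) in 7, where it was 2.27-fold lower.

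*Mcm5* showed the widest difference of the ring. It read 19.3, 21.7, 26.3, 17.6 and 17.1 CPM in CFA and 6.20, 5.35, 9.79, 3.75 and 40.8 CPM in HFA, so that HFA 5 was 2-fold above the CFA mean of 20.4 ± 3.77 CPM (SD, n = 5) and the other HFA libraries were below every CFA one. In the 7 libraries it was 3.42-fold lower (log2 fold change −1.77, SE 0.30), against a log2 fold change of −0.62 (SE 0.59) in all 10. *Mcm2* read 22.7, 24.2, 28.4, 24.1 and 24.9 CPM in CFA and 13.4, 13.5, 15.2, 9.88 and 44.2 CPM in HFA. *Mcm3* read 22.4, 25.1, 29.8, 20.4 and 26.8 CPM in CFA and 13.2, 12.8, 11.5, 7.13 and 54.5 CPM in HFA. The same arrangement of the libraries, HFA 1 to 4 below and HFA 5 above all CFA, held for both. *Mcm4* read 26.2, 32.8, 31.9, 27.7 and 29.9 CPM in CFA and 18.9, 19.2, 16.7, 15.3 and 63.1 CPM in HFA, again with no overlap apart from HFA 5. The log2 fold changes of *Mcm2*, *Mcm3* and *Mcm4* were −0.37 (SE 0.37), −0.32 (SE 0.49) and −0.15 (SE 0.38) in all 10 libraries, none of them called, and −0.95 (SE 0.17), −1.12 (SE 0.23) and −0.71 (SE 0.14) in the 7. *Mcm7*, whose intron holds microRNAs and 12.6% of whose exon bases are shared with neighbouring genes, read 24.3 to 33.5 CPM in CFA and 16.4 to 36.7 CPM in HFA, and did not pass in 10 libraries (log2 fold change −0.30, adjusted p = 0.768) or in 7 (−0.53, adjusted p = 0.0923).

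Of the genes that license origins, *Cdc6* (chromosome 11, 98907801 to 98923940) encodes the ATPase that helps load the ring. It read 3.64, 2.74, 5.33, 4.34 and 3.06 CPM in CFA and 1.33, 1.47, 0.568, 2.10 and 4.90 CPM in HFA. HFA 5 lay inside the CFA range and the other 4 HFA libraries below it, on 4 to 82 reads per library. The log2 fold change was −0.84 (SE 0.47, adjusted p = 0.699 in edgeR's quasi-likelihood test) in 10 libraries and −1.66 (SE 0.36, adjusted p = 0.0481) in 7. *Cdt1*, the partner of CDC6 in loading, read 6.86 to 12.4 CPM in CFA, 1.99 to 5.53 CPM in HFA 1 to 4 and 26.9 CPM in HFA 5, which was 2.96-fold the CFA mean and the highest such ratio of the list. The log2 fold change of *Cdt1* was −0.14 (SE 0.65) in 10 libraries and −1.14 (SE 0.31, adjusted p = 0.0785) in 7. The recognition subunits differed from each other: *Orc1* was near the limit of detection, with 0 to 18 reads per library, and *Orc6* read 12.0 to 20.8 CPM in CFA and 12.1 to 19.0 CPM in HFA, ranges that nearly coincide. In 10 and in 7 libraries, the log2 fold change was −0.59 and −1.18 for *Orc1* and −0.16 and −0.27 for *Orc6*, none of them called.

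The next group turns the helicase on. *Gins2* (chromosome 8, 120578633 to 120589304), a subunit of GINS, read 4.53, 6.14, 5.01, 5.78 and 2.84 CPM in CFA and 2.99, 1.98, 3.12, 2.65 and 4.33 CPM in HFA. CFA 5 was low among CFA, and the groups overlapped even without HFA 5, but not in the 7 libraries. Its log2 fold change was −0.68 (SE 0.27, unadjusted p = 0.0289, adjusted p = 0.655 in edgeR's quasi-likelihood test) in 10 libraries and −0.94 (SE 0.24, adjusted p = 0.0668) in 7. *Gins2* shares 67.3% of its exon bases with *Gse1* on the other strand, and the strand setting of the counting is not given. Reads on the shared bases were left out as belonging to more than 1 gene unless they were assigned by strand. The paper names the TruSeq RNA Sample Prep Kit v2, and reads that fell on no gene made up 3.43% to 5.47% of a library. Which way the reads on the shared bases were handled was not tested. *Mcm10*, a scaffold of the activated helicase, read 3.78, 3.29, 3.38, 3.61 and 1.94 CPM in CFA and 1.22, 1.64, 1.42, 0.914 and 4.77 CPM in HFA. CFA 5 was again the low CFA library and HFA 5 the high HFA one, and in the 7 libraries *Mcm10* fell 2.76-fold (log2 fold change −1.46, SE 0.28), against a log2 fold change of −0.65 (SE 0.43) in all 10.

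The other members of this step did not pass the threshold. *Gins1*, *Gins3* and *Cdc45* had log2 fold changes of −0.39, −0.14 and −0.19 in 10 libraries and of −0.64, −0.70 and −0.40 in 7, the latter with adjusted p of 0.221, 0.140 and 0.398 by the same test. *Gins4* read 24.2, 24.2, 22.9, 21.3 and 23.4 CPM in CFA and 19.4, 19.8, 24.7, 28.3 and 27.4 CPM in HFA, with both groups overlapping whatever libraries were used. Its log2 fold change was 0.04 (SE 0.14) in 10 libraries and 0.01 (SE 0.16) in 7, and it turned to −0.025 with upper-quartile scaling.

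DNA polymerase alpha and its primase lay the RNA-DNA primers. *Prim1* (chromosome 10, 128015168 to 128030037), the catalytic primase subunit, read 9.61, 9.21, 12.9, 9.75 and 6.94 CPM in CFA and 3.99, 3.28, 5.96, 3.75 and 15.9 CPM in HFA. HFA 1 to 4 were below all CFA libraries and HFA 5 above them, and in the 7 libraries the gene fell 2.57-fold (log2 fold change −1.36, SE 0.24, adjusted p = 0.0428 in edgeR's quasi-likelihood test). In all 10 its log2 fold change was −0.55 (SE 0.43). *Prim2*, the regulatory subunit, read 8.03, 7.79, 9.30, 6.14 and 6.49 CPM in CFA and 4.65, 4.83, 3.12, 5.12 and 9.04 CPM in HFA, with HFA 5 inside the CFA range. Its log2 fold change was −0.49 (SE 0.27) in 10 libraries and −0.81 (SE 0.23, adjusted p = 0.0848) in 7. *Pola1* and *Pola2*, the catalytic and accessory polymerase subunits, had log2 fold changes of −0.55 and −0.08 in 10 libraries and of −0.99 and −0.31 in 7, the latter with adjusted p of 0.104 and 0.214.

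The catalytic subunits of the elongating polymerases parted. *Pold1* (chromosome 7, 44532746 to 44548849), of the lagging strand polymerase delta, read 19.3, 20.7, 21.5, 18.3 and 31.0 CPM in CFA and 12.1, 11.0, 10.9, 10.2 and 57.2 CPM in HFA. HFA 1 to 4 differed from each other by less than 2 CPM, CFA 5 was the high CFA library here, and HFA 5 was 2.58-fold above the CFA mean. The log2 fold change was −0.84 (SE 0.13) in the 7 libraries and −0.12 (SE 0.50) in all 10. *Pole*, of the leading strand polymerase epsilon, read 7.97, 7.02, 12.6, 7.30 and 7.76 CPM in CFA and 7.20, 6.38, 9.08, 7.31 and 10.8 CPM in HFA. These groups overlapped in every set of libraries, and *Pole* had a log2 fold change of −0.32 (SE 0.23, adjusted p = 0.450 in edgeR's quasi-likelihood test) in the 7 and of −0.07 (SE 0.22) in the 10.

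*Pcna* (chromosome 2, 132249162 to 132253314), the ring that holds the polymerases on DNA, read 19.8, 24.0, 23.1, 20.2 and 18.2 CPM in CFA and 13.1, 13.8, 13.5, 14.2 and 34.4 CPM in HFA. HFA 1 to 4 were close to each other, at 13.6 ± 0.471 CPM (SD, n = 4), below the 21 ± 1.84 CPM (SD, n = 3) of CFA 1, 3 and 4. This was the smallest fold among the 15 genes that passed, at 1.54 (log2 fold change −0.63, SE 0.12), and in all 10 libraries the log2 fold change of *Pcna* was −0.24 (SE 0.28). The clamp is loaded by replication factor C. *Rfc5* read 9.41, 9.32, 10.5, 10.4 and 7.76 CPM in CFA and 4.65, 4.74, 5.11, 3.38 and 13.4 CPM in HFA, and fell 2.27-fold in the 7 libraries (log2 fold change −1.18, SE 0.19, against −0.59, SE 0.34, in all 10). *Rfc4* read 6.87, 9.32, 10.01, 7.95 and 8.81 CPM in CFA and 6.09, 6.38, 4.26, 6.95 and 9.04 CPM in HFA. HFA 4 lay just above the lowest CFA library there, and the log2 fold change of *Rfc4* was −0.39 (SE 0.21) in 10 libraries and −0.48 (SE 0.22, adjusted p = 0.227 in edgeR's quasi-likelihood test) in 7. *Rfc2* and *Rfc3* did not pass either, with log2 fold changes of −0.17 and −0.28 in the 10 libraries and of −0.41 and −0.67 in the 7.

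*Lig1* (chromosome 7, 13277283 to 13311433), the ligase that seals the fragments of the lagging strand, read 20.9, 21.6, 25.8, 19.9 and 14.1 CPM in CFA and 10.6, 10.4, 11.4, 9.69 and 26.1 CPM in HFA. HFA 1 to 4 lay within 2 CPM of each other, and the smallest adjusted p of the list in the 7 libraries was that of *Lig1* (0.0422, log2 fold change −1.08, SE 0.14, in edgeR's quasi-likelihood test). In all 10 libraries its log2 fold change was −0.58 (SE 0.30). *Fen1*, the nuclease that trims the flaps before ligation, read 0 to 0.446 CPM, on 0 to 7 reads per library, and was not tested. *Tmem258* and *Gm10143* on the other strand cover 84.2% of its exon bases. As for *Gins2*, whether reads there were assigned by strand or left out was not tested. If they were left out, the level of *Fen1* is understated.

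*Rrm2* (chromosome 12, 24708241 to 24714146) encodes the small subunit of ribonucleotide reductase, which makes deoxynucleotides and is present in S phase. It read 7.28, 10.2, 11.4, 11.7 and 8.06 CPM in CFA and 1.77, 2.76, 3.41, 1.92 and 22.1 CPM in HFA. This was the largest fold of the list in the 7 libraries, 4.15-fold lower (log2 fold change −2.05, SE 0.29), and HFA 5 was 2.27-fold above the CFA mean, so that in all 10 the log2 fold change was −0.59 (SE 0.67). *Rrm1*, the large subunit, read 45.7, 44.2, 63.8, 49.1 and 40.7 CPM in CFA and 34.8, 40.4, 43.6, 39.7 and 55.6 CPM in HFA. Its groups did not overlap in the 7 libraries, but the difference of 1.34-fold did not pass (adjusted p = 0.123 in edgeR's quasi-likelihood test). Over all 10 libraries the log2 fold change of *Rrm1* was −0.19 (SE 0.16).

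Chromatin is rebuilt behind the fork by CAF-1. *Chaf1b* (chromosome 16, 93883901 to 93906115) read 5.01, 6.36, 8.19, 5.42 and 4.25 CPM in CFA and 1.88, 2.16, 2.84, 1.37 and 8.15 CPM in HFA, and fell 3.05-fold in the 7 libraries (log2 fold change −1.61, SE 0.30), against a log2 fold change of −0.81 (SE 0.46) in all 10. *Chaf1a* read 6.73, 4.94, 9.88, 6.65 and 4.25 CPM in CFA and 3.10, 3.88, 4.97, 2.29 and 6.30 CPM in HFA. Its HFA 5 level did not exceed CFA 1, 3 or 4, whereas that of *Chaf1b* exceeded CFA 1 and 4 but not CFA 3. The log2 fold change of *Chaf1a* was −0.66 (adjusted p = 0.678 in edgeR's quasi-likelihood test) in 10 libraries and −1.14 (adjusted p = 0.0678) in 7. *Chaf1a* shares 52.5% of its exon bases with *Ubxn6* on the other strand. *Slbp*, which binds the stem-loop of histone mRNAs, read 21.2 to 26.1 CPM in CFA, 11.6 to 20.6 CPM in HFA 1 to 4 and 40.8 CPM in HFA 5, with log2 fold changes of −0.18 (SE 0.31) in 10 libraries and −0.58 (SE 0.18) in 7, neither called.

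*Dtl* (chromosome 1, 191537356 to 191575544), the substrate receptor of the ubiquitin ligase that removes CDT1 on clamp-bound DNA, had the smallest unadjusted p in all 10 libraries (0.00487 in edgeR's quasi-likelihood test, adjusted p = 0.648). It read 8.86, 10.8, 12.3, 6.86 and 4.78 CPM in CFA and 2.88, 2.59, 2.27, 1.55 and 6.62 CPM in HFA. Unlike most of the list, *Dtl* in HFA 5 was below the CFA mean, at 0.760 of it, and HFA 1 to 4 were below every CFA library. The log2 fold change was −1.43 (SE 0.40) in 10 libraries and −2.01 (SE 0.29, adjusted p = 0.0428) in 7, and leaving out any single library of the 10 kept it between −1.94 and −1.26. *Ccne1*, the cyclin that drives entry into S phase, had the largest p of the list and read 3.50, 5.16, 4.75, 5.64 and 7.24 CPM in CFA and 3.99, 1.98, 2.70, 4.30 and 12.0 CPM in HFA. These groups overlapped throughout, with a log2 fold change of −0.06 (SE 0.45, unadjusted p = 0.895). *Ccne2* and the transcription factor *E2f1* overlapped as well, with log2 fold changes of −0.31 and −0.54 in 10 libraries and of −0.32 and −0.80 in 7, the latter with adjusted p of 0.420 and 0.234.

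**Figure D3:**
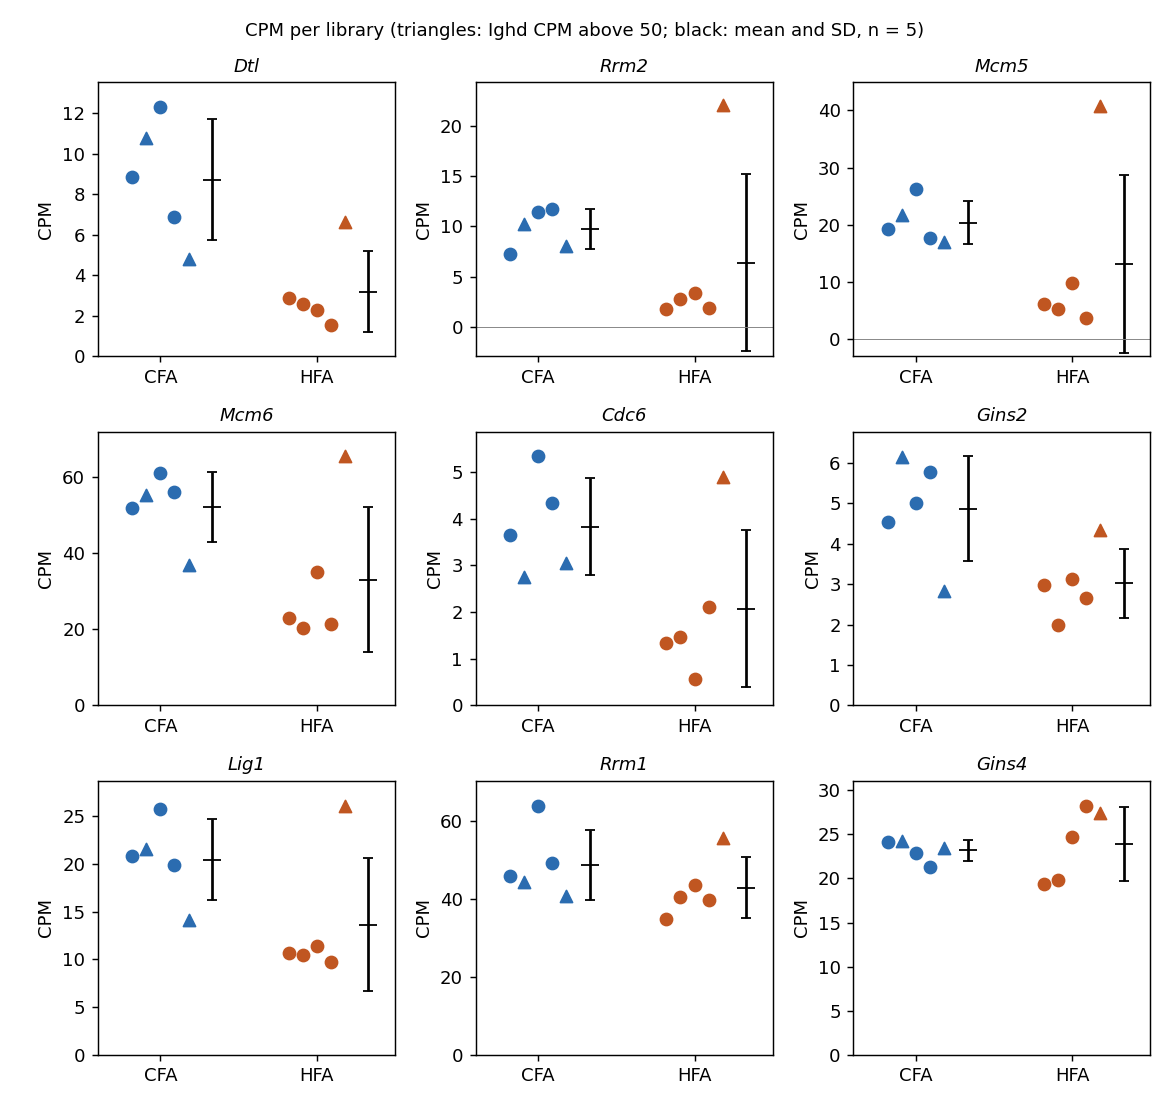
CPM of 9 genes in each library, CFA in blue and HFA in orange, with triangles for the 3 libraries with *Ighd* above 50 CPM and the mean and SD (n = 5) in black. HFA 5, the only triangle of the HFA group, is the highest HFA library in every panel except *Gins4*. For *Dtl* it stays below the CFA mean of 8.71 CPM.

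Per kb of exon, levels could be set against each other between genes. In CFA *Gins4* had the highest level, at 17.2 ± 0.885 CPM per kb (SD, n = 5), followed by *Mcm6* at 11.2 ± 1.97, *Pcna* at 8.78 ± 1.01 and *Mcm4* at 8.28 ± 0.768. *Gins4* and *Mcm6* differed by more than their SDs, whereas *Pcna* and *Mcm4* did not. Although the helicase holds its subunits in equal number, their RNA ranged from 3.58 CPM per kb (*Mcm2*) to 11.2 (*Mcm6*). GINS likewise has its subunits in equal number, and *Gins1*, *Gins2* and *Gins3* were at 2.65, 1.19 and 1.53 CPM per kb, far below *Gins4*. The lowest levels of the list were those of *Mcm10* (0.416), *Orc1* (0.243) and *Fen1* (0.128). The exon length joins the exons of all annotated transcripts, so that a gene with long rare exons, such as *Dtl* with 13709 bases, is understated. *Gins2* and *Fen1*, with 67.3% and 84.2% of their exon bases shared with other genes, are understated too if reads there were left out.

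**Figure D4:**
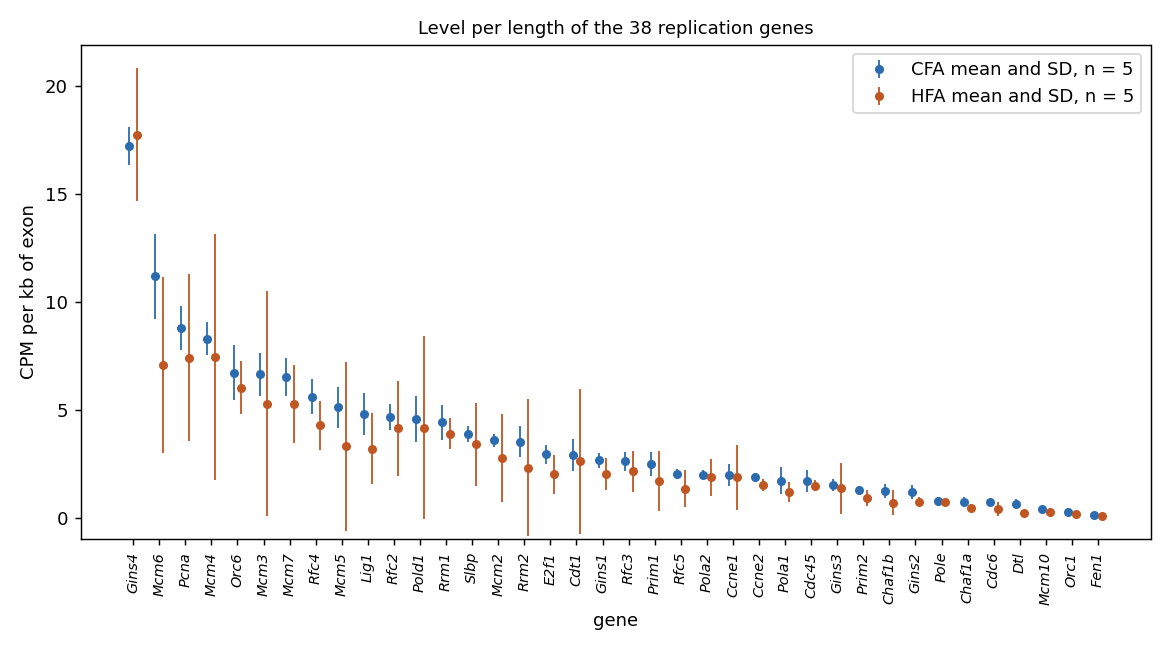
CPM per kb of exon of the 38 genes in CFA (blue) and HFA (orange), means with SD over 5 libraries, ordered by the CFA mean. *Gins4* leads at 17.2 and *Fen1* is last at 0.128. For most genes the HFA bars are wider than the CFA bars, and HFA 5 lies above the other HFA libraries for 36 of the 38.

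The remaining machinery of replication was read from a second list of 62 genes (origin recognition and firing, polymerase subunits, single-strand binding, fork protection, nucleotide supply, histone chaperones and G1/S control). In all 10 libraries 0 of 62 were called by edgeR's quasi-likelihood test, by DESeq2 or by limma voom, 3 were lower at an unadjusted p below 0.05 (3.49% of all genes), 44 were below 0 (40.0% of all genes) and the median log2 fold change was −0.15. In the 7 libraries 6 of 62 fell (1.8% of all genes), 53 were below 0 (49.0% of all genes) and the median was −0.37. The 6, named after their values were seen, were *Cdc7*, *Topbp1* and *Wdhd1* of origin firing, the nuclease *Exo1*, and *Uhrf1* and *Dnmt1*, which copy DNA methylation onto the new strand. *Exo1* had a log2 fold change of −2.56 (SE 0.50) there. The other genes of smallest unadjusted p in all 10 libraries were *E2f8*, *Skp2*, *Tyms* and *Recql4*, all lower in HFA, and *Rrm2b*, which was higher. *Rrm2b*, the small subunit of ribonucleotide reductase used outside S phase, read 32.2 to 43.7 CPM in CFA and 39.5 to 53.2 CPM in HFA. Its log2 fold change was 0.28 (SE 0.13, adjusted p = 0.671 in edgeR's quasi-likelihood test). *Tyms*, the folate-dependent thymidylate synthase, read 8.79, 10.4, 10.3, 8.89 and 6.19 CPM in CFA and 4.10, 5.09, 6.81, 3.75 and 9.17 CPM in HFA. Its log2 fold change was −0.62 (SE 0.27, adjusted p = 0.670) in 10 libraries and −0.93 (SE 0.23, adjusted p = 0.0649) in 7.

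Genes of G2 and mitosis, 18 in all, had fold changes below 0 in both sets of libraries, with a median of −1.16 in 10 (0 called, 6 lower at an unadjusted p below 0.05, beside 3.49% of all genes) and of −2.14 in 7 (10 called, all lower, beside 1.8%). The 6 of smallest unadjusted p in all 10 libraries were the kinases *Aurka*, *Aurkb*, *Plk1* and *Cdk1* and the spindle and centromere genes *Nusap1* and *Cenpf*. *Cdk1* read 14.4, 15.1, 16.6, 9.10 and 4.93 CPM in CFA and 3.32, 3.36, 4.40, 3.02 and 11.7 CPM in HFA. HFA 5 was thus within the CFA range, and it exceeded all CFA libraries for 1 of the 18 genes, against 22 of the 38 replication genes and 40 of the 62 other replication genes. That share was not computed over all genes, of which HFA 5 was the highest of the 10 libraries for 31.8%. Summed over the list, the 38 genes took 501.3 to 647.1 CPM in CFA, 324.3 to 377.3 CPM in HFA 1 to 4 and 862.1 CPM in HFA 5, while the 18 G2 and mitosis genes took 111.8 to 409.9, 29.5 to 88.3 and 280.0 CPM. The ratio of the 2 sums ran from 1.58 in CFA 3 to 11.0 in HFA 4 and was 3.08 in HFA 5.

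**Figure D5:**
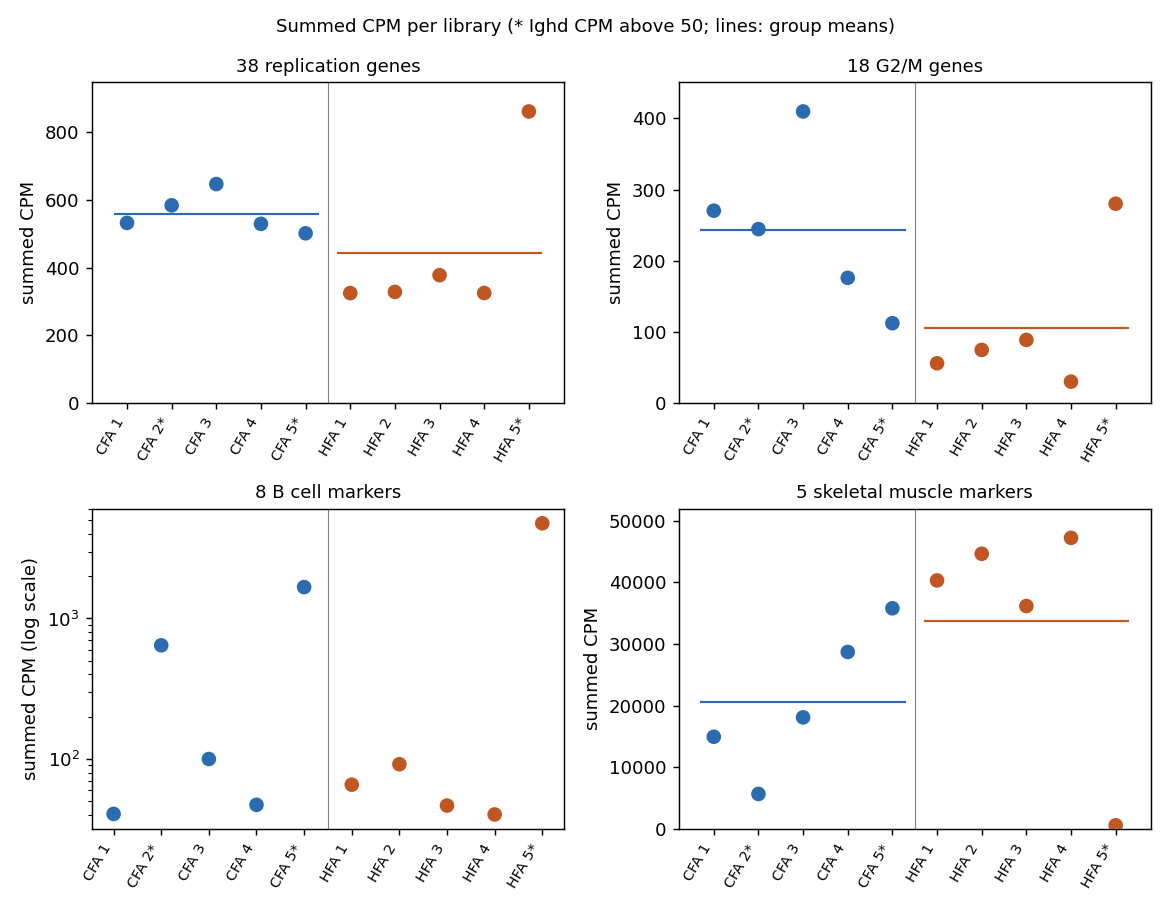
Summed CPM per library of the 38 replication genes, the 18 G2 and mitosis genes, the 8 B cell markers (log axis) and the 5 skeletal muscle markers, CFA in blue and HFA in orange, starred where *Ighd* exceeded 50 CPM, with group means as lines on the linear axes. HFA 5 has the highest replication sum (862.1 CPM), but its G2 and mitosis sum (280.0 CPM) lies within the CFA range.

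Markers of some other cell types differed between the groups along with the replication genes in the 7 libraries. The 5 skeletal muscle markers summed to 14958 to 28711 CPM in CFA and 36163 to 47216 CPM in HFA, with 5 of 5 higher and 1 of them called. The 5 basal epithelial markers summed to 607.0 to 879.2 CPM in CFA and 276.0 to 646.7 CPM in HFA, with 5 of 5 lower and 3 called. The 7 luminal markers summed to 1217 to 1572 CPM and 907.1 to 1444 CPM, with 5 of 7 lower and 2 called. Both epithelial sums overlapped between the groups, unlike the muscle sums. The 3 erythroid markers summed to 70.9 to 103.9 CPM in CFA and 137.5 to 188.0 CPM in HFA, with 3 of 3 higher and 2 called. The 7 T cell markers summed to 10.1 to 13.9 CPM and 5.76 to 8.80 CPM. The sums of the 8 B cell markers nearly coincided, at 40.6 to 99.8 CPM and 40.2 to 91.7 CPM. The 6 germinal centre B cell markers summed to 55.5 to 64.6 CPM in CFA and 67.6 to 78.8 CPM in HFA. Of the 4 of them tested, 3 had a fold change below 0 and 1 was called. Of the stromal lists, the 5 fibroblast markers summed to 4487 to 7595 CPM in CFA and 970.6 to 5887 CPM in HFA, and the 3 brown adipocyte markers to 58.9 to 285.1 CPM and 121.1 to 1752 CPM. The part of the erythroid, lymphoid and stromal differences in the result was not tested.

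With the mean of the epithelial markers as a covariate in the 7 libraries, 37 of 37 genes were below 0, the median was −0.83 and 14 were lower at an unadjusted p below 0.05, beside 1.14% of all genes. With the muscle markers as a covariate, 33 of 37 were below 0, the median was −0.60 and 3 were lower at that level, beside 0.482%. In both fits 0 of the 37 passed the adjusted threshold. The muscle sums of the groups did not overlap in these libraries, so that muscle content and diet cannot be told apart there.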

How the data were processed

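The deposited values are whole-number counts per gene, without normalization. Per the labels and the methods of the study, the authors aligned reads to GRCm38 with TopHat2 2.0.14 and Bowtie2 2.2.5 and counted them with HTSeq 0.6.1. The strand setting is not given in the sources used here. Each list holds 46983 genes and 5 summary lines, which were left out. Symbols and positions were taken from GENCODE M21 (GRCm38), which named 46488 genes.

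Groups came from the labels. Counts were fitted with edgeR 4.0.16 (R 4.3.3) after filterByExpr and TMM scaling, using estimateDisp, glmQLFit and glmQLFTest and comparing HFA with CFA with no covariate, with Benjamini-Hochberg adjustment over all genes tested and a threshold of 0.05. The common biological coefficient of variation was 0.409. A standard error is the log2 fold change over the root of the F statistic. The study also used cage, which the labels do not give. The p-values measure the spread between these libraries, 1 per mouse. The scripts were tested on simulated data.

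The members and lists were chosen with earlier results of these data known. All 38 genes are named. Library values are given for the gene of smallest p in each of 10 roles, for genes at an unadjusted p below 0.05, for genes past the threshold in the 7 libraries and for the gene of largest p. Of the other 2 lists, the 6 genes of smallest p are named, and *Tyms*. A further gene of that rule is not reported here.

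The alternatives tried were scaling by RLE or by the upper quartile, no filter, the likelihood ratio test, DESeq2 1.42.0, limma voom 3.58.1, the second title digit, a block by the last 3 title digits, a covariate of B and T cell markers, the 7 libraries, and each library left out. Added after the data were seen were the other tests on the 7 libraries, each of the 7 left out, covariates of epithelial and muscle markers, and removal of the 200 most abundant genes with the muscle markers. Promoter windows came from RefSeq (GRCm38.p6), and 30 of the 38 genes matched.

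The last 3 title digits were shared by 4 pairs of a CFA and an HFA library. The correlations of their deviations from the group means over 15610 genes were 0.332, −0.333, 0.130 and 0.422, so the digits were not taken to pair the mice.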

Additional observations from a re-analysis of the deposited data

Results flagged for a closer look

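In each group of 5 libraries, the gap between the highest or lowest library and its nearest neighbour was set against the range of the group, for the CPM of each of the 38 genes, and a value above 0.71 marked a library as standing apart. Chance gives about 1 such value in 20 independent groups. The 38 genes were read in the same 10 libraries, so their groups are not independent and that rate does not apply to their count. The share over all genes was not computed. Among the 38 genes, 22 of the 76 groups gave such a value. Of these, 18 were HFA 5, above the other HFA libraries. The gap over range of HFA 5 was 0.846 for *Mcm2*, 0.872 for *Mcm3*, 0.917 for *Mcm4* and 0.837 for *Mcm5* in the helicase. It was 0.858 for *Cdt1*, 0.874 for *Gins3* and 0.812 for *Mcm10* in licensing and activation. For the polymerases it was 0.820 for *Pola2*, 0.788 for *Prim1* and 0.961 for *Pold1*, and for the clamp and its loader 0.948 for *Pcna*, 0.891 for *Rfc3* and 0.827 for *Rfc5*. The rest were *Lig1* at 0.899, *Rrm2* at 0.920, *Chaf1b* at 0.784, *Dtl* at 0.739 and *Ccne1* at 0.768. HFA 5 had the highest *Ighd* level (895.3 CPM) and the lowest muscle marker sum (602 CPM) of the 10 libraries, and the part of either in these values was not tested.

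In CFA, the library CFA 3 stood above the others for *Cdc45* (0.793) and *Pole* (0.831), and CFA 5 stood below them for *Mcm10* (0.735) and above them for *Pold1* (0.746).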

How the results depend on the processing

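With all 10 libraries, RLE scaling, the likelihood ratio test, DESeq2 and the second title digit as a term left 0 genes called. Each left 2 lower at an unadjusted p below 0.05, beside 3.47% to 5.17% of all genes. That count was 6 with upper-quartile scaling, 5 without the filter and 5 by limma voom, beside 4.74%, 3.72% and 3.61% of all genes lower at that level. It was 9 with the B and T cell covariate, 20 with the epithelial covariate (median −0.79) and 20 with the muscle covariate, beside 8.59%, 5.86% and 8.12%. With upper-quartile scaling 37 of 37 genes were below 0, beside 50.4% of all genes. A replicate block by the last 3 title digits gave 0 calls and a median of −0.49, with 1 gene lower at an unadjusted p below 0.05, beside 4.75% of all genes. It was run only on the 10 libraries, where no gene was called with or without it, and it left 1 of the other replication genes and 0 of the G2 and mitosis genes at an unadjusted p below 0.05, from 3 and 6. With title digit 2 alone, 12 genes were called lower, beside 4.11% of all genes. At an unadjusted p below 0.05, 24 were lower, beside 14.1%. The other replication genes there had 7 calls, all lower, and a median of −0.49. With digit 3 alone, the counts were 0 called, 0 at an unadjusted p below 0.05 and 21 below 0. The shares of all genes lower in those ways were 0.0%, 2.56% and 47.8%.

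The 7 libraries gave 15 calls, 25 at an unadjusted p below 0.05, a median of −0.81 and 6 calls among the other replication genes. For the same 4 values, the likelihood ratio test gave 21, 28, −0.81 and 20, DESeq2 22, 26, −0.80 and 20, limma voom 15, 30, −0.84 and 8, and removal of the 200 most abundant genes 15, 26, −0.81 and 7. Of all genes, 1.8% were called lower by the quasi-likelihood test and 5.27% by the likelihood ratio test. The same share was 5.32% by DESeq2, 1.54% by limma voom and 2.07% after that removal. At an unadjusted p below 0.05, 11.5%, 11.1%, 11.3%, 11.9% and 11.9% of all genes were lower, in that order. The epithelial covariate in the 7 libraries gave 14 lower at an unadjusted p below 0.05, beside 1.14% of all genes, and a median of −0.83. Leaving out each of the 7 gave 0 to 14 calls, beside 0.0% to 3.75% of all genes called lower. It left 22 to 29 lower at an unadjusted p below 0.05, beside 7.3% to 12.5%. The medians were −0.69 to −0.88, and the other genes had 0 to 12 calls. Leaving out each of the 10 gave 0 to 1 calls, beside 0.0% to 0.0254% of all genes called lower. It left 1 to 31 lower at an unadjusted p below 0.05, beside 2.41% to 15.0%. The medians were −0.26 to −0.81 and, for the other genes, −0.090 to −0.50. The upper values all came without HFA 5, when 1 gene, *Rrm2*, was called and 31 were lower at an unadjusted p below 0.05. The cause of these shifts was not tested.

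Of 1401 values computed for single genes under the alternatives, 49 had the opposite sign. With digit 3 alone, the log2 fold changes above 0 were *Mcm3* 0.17, *Mcm4* 0.30, *Mcm5* 0.033, *Mcm7* 0.027, *Orc6* 0.17, *Cdt1* 0.57, *Gins3* 0.42, *Pola2* 0.26, *Pold1* 0.42, *Pcna* 0.15, *Rfc2* 0.085, *Rfc3* 0.049, *Rrm2* 0.11, *Slbp* 0.35 and *Ccne1* 0.38, and the median of the other replication genes was 0.06. With digit 2 alone *Pole* was at 0.029 and *Gins4* at −0.16. The muscle covariate in the 7 libraries put *Cdc45* at 0.25, *Gins1* at 0.13 and *Pole* at 0.42. *Gins4* was at −0.022 with the epithelial covariate, −0.049 with it in the 7 libraries, −0.0069 by limma voom in the 7, −0.029 without the filter and −0.025 with upper-quartile scaling. With each of the 10 libraries left out, the ranges were −0.06 to 0.11 for *Gins4* (−0.11 to 0.08 within the 7), −0.24 to 0.064 for *Pole* (−0.46 to −0.036 within the 7), −1.43 to 0.11 for *Cdt1*, −1.05 to 0.044 for *Pold1*, −0.74 to 0.14 for *Ccne1*, −0.45 to 0.026 for *Pola2* and −0.90 to 0.026 for *Gins3*.

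Low counts limited *Fen1* and *Orc1*, and 14 of the 38 genes share exon bases with a neighbour. With 3 against 4 mice and adjusted p just under 0.05, the calls in the 7 libraries depended on single mice.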
